A study of Homo sapiens with 7 samples.

Results

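The mRNA levels of 36 aminoacyl-tRNA synthetase genes were examined in HEL cells, a human erythroleukemia cell line, with and without CRISPR targeting of WTAP. The genes were chosen by symbol alone, as the gene lists of the hg19 build spell them. They comprised 20 genes for cytosolic enzymes and 16 genes for mitochondrial enzymes, whose symbols end in 2, among 24819 gene symbols listed in every sample. All 36 were above the filter on low values, with 164 or more reads in every sample, and were tested among 12631 genes. The series held 7 RNA-seq samples. There were 3 control samples with a non-targeting CRISPR guide (NTC), and 4 WTAP knockout (WTAP KO) samples, 2 with guide sg1 and 2 with guide sg2. WTAP belongs to the methyltransferase complex that deposits N6-methyladenosine (m6A) on mRNA. Guides were delivered by lentivirus, and the labels name no clone, so each sample is taken as a population of transduced cells. The labels name HEL for the NTC samples, and the cell line of the WTAP KO samples comes from the study's methods. Neither source says that replicates were separate cultures, so p-values measure the spread between these samples, which may be technical.

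An aminoacyl-tRNA synthetase joins an amino acid to its cognate tRNA, the step that sets the reading of the genetic code. The cytosol and the mitochondrion translate separately, and most amino acids therefore have one nuclear gene for a cytosolic enzyme and another for an enzyme that is imported into mitochondria. GARS and KARS are exceptions in which a single gene serves both compartments. EPRS carries the glutamyl and the prolyl enzyme in one chain, and FARSA and FARSB encode the alpha and beta subunits of one enzyme. Several cytosolic enzymes assemble with the scaffold proteins AIMP1, AIMP2 and EEF1E1 into the multisynthetase complex. Many cytosolic synthetase genes are known targets of ATF4, the transcription factor of the integrated stress response and of the response to amino acid shortage, which binds C/EBP-ATF response elements. WARS is also known as an interferon-gamma-induced gene.

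Values are counts per 1000000 counted reads (CPM). Depth ranged from 37.3 to 41.0 M reads (M, 1000000) in the NTC samples and from 15.9 to 26.3 M reads in the WTAP KO samples, so that 3 reads corresponded to between 0.0732 and 0.189 CPM. Intervals and floors of this kind cover counting error only. The WTAP KO files listed 551 more symbols than the NTC files, which took 0.437 to 0.460% of their reads. Depth, gene list and group separated the samples in the same way and cannot be told apart. WTAP mRNA itself had 145, 136 and 149 CPM in NTC, at 123 and 139.9 CPM with sg1, and 84.8 and 114 CPM with sg2. Its difference did not pass the threshold over all WTAP KO samples (log2 fold change -0.33, limma adjusted p = 0.0801), and it passed with sg2 alone (log2 fold change -0.53, adjusted p = 0.0043). A small insertion or deletion need not lower the mRNA of a targeted gene.

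The C/EBP-ATF response element was searched for in promoter windows because it is the sequence through which ATF4 is known to act on synthetase genes. The letters searched were TGATGNAA on the gene's strand or TTNCATCA, the same element read on the other strand. Windows ran from 250 bases before to 50 bases after each RefSeq start (GRCh38.p14), and 30 of the 36 synthetases had at least 1. A gene was counted when any of its windows held the element. The element was present in 7 of 16 cytosolic genes with a window (43.8%) and in 1 of 14 mitochondrial genes (7.14%), against 4.46% of all genes in the RefSeq table and 2.75% of the tested genes with a window. The matches are given on the strand of each gene, 5′ to 3′, with the element in capitals.

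AARS: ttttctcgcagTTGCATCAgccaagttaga
CARS: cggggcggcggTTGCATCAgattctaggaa
GARS: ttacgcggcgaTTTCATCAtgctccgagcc
IARS: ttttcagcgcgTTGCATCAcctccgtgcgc
MARS: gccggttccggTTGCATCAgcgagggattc
TARS: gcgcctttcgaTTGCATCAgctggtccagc
YARS2: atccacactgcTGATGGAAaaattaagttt

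Each printed stretch matched the GRCh37 genome once. They lay at chr16:70323578-70323607 (minus strand) for AARS, chr11:3078637-3078666 (minus strand) for CARS, chr7:30634450-30634479 (plus strand) for GARS and chr9:95055974-95056003 (minus strand) for IARS. The stretches of MARS, TARS and YARS2 lay at chr12:57881836-57881865 (plus strand), chr5:33441062-33441091 (plus strand) and chr12:32909010-32909039 (minus strand). The 6 cytosolic genes shown carried the element on the strand opposite to the gene, and 5 of them shared the letters TTGCATCA, whereas GARS had TTTCATCA. In IARS, MARS, TARS and CARS the first base of the element lay at -13, -4, 3 and -2 relative to the start, and in AARS and YARS2 it lay further upstream at -187 and -197. NARS also had a match, which is not printed. A match is a run of letters and was not tested as a binding site.

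To compare the synthetases between WTAP KO and NTC, log2(CPM + 1) was tested with limma across all 12631 genes at an adjusted p of 0.01. Of the 20 cytosolic synthetases, 6 rose, 5 fell and 9 did not pass the test. Of the 16 mitochondrial synthetases, 9 fell and 7 did not pass. These counts stand beside a background in which 52.4% of all tested genes passed, 32.5% upward and 19.8% downward. The median log2 fold change was -0.10 for the cytosolic genes, -0.51 for the mitochondrial genes and 0.15 for all tested genes. No mitochondrial synthetase passed upward with limma, where 1 did so at an unadjusted p under 0.05, and none passed upward with edgeR or DESeq2. GARS, which rose, and KARS, which did not pass, serve both compartments and were counted as cytosolic only. Scaling by median-of-ratios moved the median of all genes to -0.04 and the split of calls over all genes from 4110 up and 2507 down to 3243 up and 3549 down. Under that scaling, 5 cytosolic synthetases rose and 9 fell, and 10 mitochondrial synthetases fell, against 25.7% of all genes upward and 28.1% downward. The cytosolic and mitochondrial medians were then -0.31 and -0.71. The mitochondrial median stayed below that of all genes under every scaling tried, whereas the cytosolic median was -0.04 against -0.05 for all genes with quantile scaling.

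**Figure D1:**
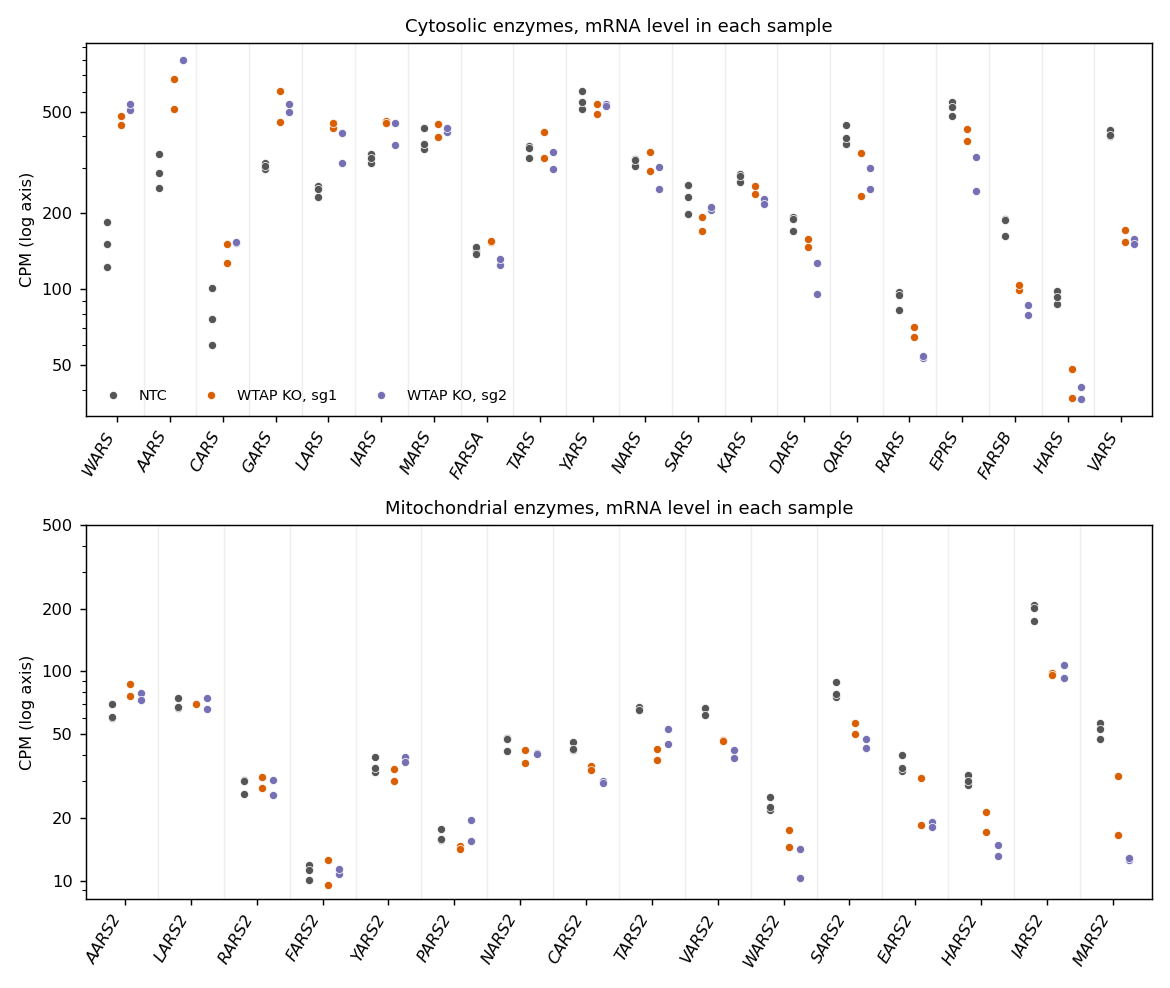
CPM on a log axis of each cytosolic synthetase (top) and each mitochondrial synthetase (bottom), with 1 point per sample for the 3 NTC, 2 sg1 and 2 sg2 samples and genes ordered by their change. WARS at the left lies at 122 to 183 CPM in NTC and 442 to 537 CPM in WTAP KO, and VARS at the right of the upper row lies at 401 to 423 CPM and 150.3 to 171 CPM.

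WARS, the cytosolic tryptophanyl-tRNA synthetase, showed the highest rise of the 36 genes. The gene lies on the minus strand at chr14:100800127-100843142 (GRCh37). Expression was 122, 183 and 151 CPM in NTC, at 442 and 479.7 CPM with sg1, and 509 and 537 CPM with sg2. All WTAP KO samples thus lay above the highest NTC sample. The means were 152 ± 30.4 (SD, n = 3) and 492 ± 40.8 CPM (SD, n = 4), a log2 fold change of 1.70 ± 0.14 (SE, limma adjusted p = 4.09e-06).

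AARS, the alanyl-tRNA synthetase (chr16:70285886-70323610, minus strand), was at 251, 340.4 and 286 CPM in NTC, at 511 and 671 CPM with sg1, and 798 and 802 CPM with sg2. The groups did not overlap, and both sg2 samples lay above both sg1 samples. Its log2 fold change was 1.24 ± 0.17 (SE, limma adjusted p = 1.40e-04). CARS, the cysteinyl-tRNA synthetase (chr11:3022152-3078843, minus strand), was at 60.4, 101 and 76.5 CPM in NTC and at 127, 151, 152 and 153 CPM in the WTAP KO samples. Here the NTC samples were spread more widely than the WTAP KO samples, and the log2 fold change was 0.90 ± 0.16 (SE, adjusted p = 7.14e-04).

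GARS, the glycyl-tRNA synthetase of cytosol and mitochondria (chr7:30620149-30673649, plus strand), was at 297, 313 and 305 CPM in NTC, at 456 and 603 CPM with sg1, and 499 and 538 CPM with sg2. LARS, the leucyl-tRNA synthetase (chr5:145490129-145562259, minus strand), was at 254, 229.5 and 248 CPM in NTC, at 429.7 and 451 CPM with sg1, and 313 and 411 CPM with sg2. The WTAP KO samples of both genes lay above every NTC sample, and their log2 fold changes were 0.77 ± 0.11 and 0.70 ± 0.13 (SE, limma adjusted p = 1.51e-04 and 8.90e-04). IARS, the isoleucyl-tRNA synthetase (chr9:94972489-95056136, minus strand), was the smallest rise, from 341, 313 and 329 CPM in NTC to 461, 453, 368 and 453 CPM in WTAP KO. Its log2 fold change of 0.40 ± 0.10 (SE, adjusted p = 0.00667) lost its call in 9 of 15 alternative analyses and in 6 of 7 fits that left out 1 sample. Among those fits it kept the call only without sg2 replicate 1, its lowest WTAP KO sample.

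The control samples themselves differed for several of the risen genes. NTC replicate 2 was the highest NTC sample for 4 of these 6 genes, WARS, AARS, CARS and GARS. NTC replicate 1 was the lowest for the same 4 genes. ASNS, the asparagine synthetase and a well-known ATF4 target, had the same order, with 66.3 CPM in replicate 1, 136 in replicate 2 and 97.4 in replicate 3. Each of the 6 genes had every WTAP KO sample above every NTC sample, which held for 40.1% of all tested genes. These 6 genes were picked by their upward call on the same samples, so this separation adds no separate evidence.

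Of the falling cytosolic genes, VARS, the valyl-tRNA synthetase (chr6:31745295-31763529, minus strand), changed most. It was at 423, 401 and 406 CPM in NTC, at 171 and 154 CPM with sg1, and 158 and 150.3 CPM with sg2. Both groups were tight, with means of 409.9 ± 11.6 (SD, n = 3) and 158 ± 9.03 CPM (SD, n = 4), and NTC was 2.58-fold higher on the log2(CPM + 1) scale. The log2 fold change was -1.37 ± 0.08 (SE, limma adjusted p = 7.31e-07).

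HARS, the histidyl-tRNA synthetase (chr5:140052620-140071122, minus strand), fell from 98.4, 87.7 and 92.8 CPM to 48.5 and 37.3 CPM with sg1, and 41.0 and 36.7 CPM with sg2 (log2 fold change -1.17, adjusted p = 1.68e-05). FARSB, the beta subunit of the phenylalanyl enzyme (chr2:223431618-223520811, minus strand), fell from 189, 162 and 187 CPM to 99.0, 103, 78.8 and 86.5 CPM (log2 fold change -0.96, adjusted p = 6.16e-05). Its partner FARSA, the alpha subunit, was at 138 to 147 CPM in NTC and at 124 to 155 CPM in WTAP KO, with overlapping groups and a log2 fold change of -0.02 (adjusted p = 0.859). The mRNAs of the subunits of this enzyme therefore changed unequally.

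RARS, the arginyl enzyme, was at 82.6 to 97.7 CPM in NTC and at 53.4 to 71.2 CPM in WTAP KO (log2 fold change -0.59, adjusted p = 0.00205). QARS, the glutaminyl enzyme, was at 373, 442 and 395 CPM in NTC, at 344 and 233 CPM with sg1, and 299 and 248 CPM with sg2 (log2 fold change -0.53, adjusted p = 0.00716). Both had every WTAP KO sample below every NTC sample, as 8 of the 20 cytosolic synthetases did, against 26.2% of all tested genes. The count of fallen cytosolic genes was 3 without NTC replicate 1 or without NTC replicate 3, where RARS and QARS lost their call. QARS lost its call in 5 of the 7 fits that left out 1 sample, and it did not pass with either guide taken alone.

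The remaining 9 cytosolic synthetases did not pass. EPRS, DARS and KARS, all members of the multisynthetase complex, had every WTAP KO sample below every NTC sample. EPRS was at 545, 479.9 and 520.3 CPM in NTC, at 383 and 427 CPM with sg1, and 242 and 332 CPM with sg2 (log2 fold change -0.60, adjusted p = 0.0111). DARS, the aspartyl enzyme, and KARS, the lysyl enzyme, had log2 fold changes of -0.50 and -0.24 (adjusted p = 0.0175 and 0.0346). These 3 genes passed as lower under median-of-ratios and in 5 to 7 further alternatives. For MARS, NARS, SARS, TARS, YARS and FARSA the groups overlapped, and log2 fold changes ran from -0.23 for SARS to 0.14 for MARS. YARS, the tyrosyl enzyme, was at 514, 606 and 547 CPM in NTC and at 488 to 536 CPM in WTAP KO.

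**Figure D2:**
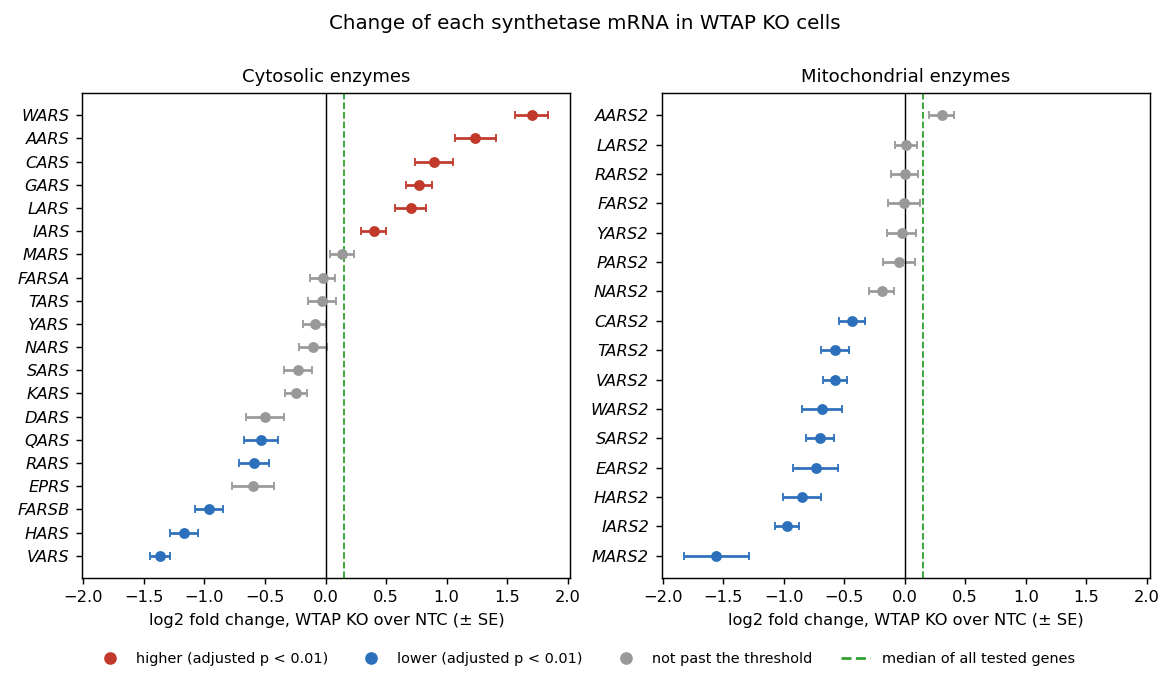
Log2 fold change of WTAP KO over NTC with its standard error for each cytosolic (left) and mitochondrial (right) synthetase, coloured by the limma call, with the median of all tested genes (0.15) as a dashed line. Cytosolic genes spread from -1.37 for VARS to 1.70 for WARS, whereas mitochondrial genes spread from -1.56 for MARS2 to 0.30 for AARS2, with 9 genes past the threshold on the lower side.

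Among the mitochondrial enzymes, MARS2, the methionyl-tRNA synthetase, fell most. This gene has a single exon in its MANE Select transcript and lies at chr2:198570093-198573119 (plus strand). It was at 56.6, 47.6 and 52.9 CPM in NTC, at 31.6 and 16.5 CPM with sg1, and 12.6 and 12.8 CPM with sg2. All WTAP KO samples were lower than the NTC samples, but the sg1 replicates lay further apart from each other than the NTC samples did. The log2 fold change was -1.56 ± 0.27 (SE, limma adjusted p = 6.34e-04).

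IARS2, the isoleucyl enzyme, lies at chr1:220267474-220321383 (plus strand), near EPRS on the same chromosome. It was at 209, 175 and 201 CPM in NTC, at 98.2 and 96.2 CPM with sg1, and 93.4 and 107 CPM with sg2. The WTAP KO samples lay close together, at 98.7 ± 5.81 CPM (SD, n = 4), against 195 ± 17.95 CPM (SD, n = 3) in NTC (log2 fold change -0.97, adjusted p = 1.74e-05). HARS2, the histidyl enzyme, was at 31.8, 28.6 and 29.9 CPM in NTC, at 21.3 and 17.0 CPM with sg1, and 14.8 and 13.1 CPM with sg2 (log2 fold change -0.85, adjusted p = 9.29e-04). HARS and HARS2 lie head to head on opposite strands of chromosome 5 and share 108 exon bases in the annotation. Both fell, and the counting of reads over the shared bases is not stated in the sources used here.

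EARS2, the glutamyl enzyme, was at 39.8, 33.3 and 34.5 CPM in NTC and at 31.1, 18.5, 19.0 and 17.9 CPM in WTAP KO, so that sg1 replicate 1 was close to the NTC samples and the other 3 were not. SARS2, the seryl enzyme, was at 75.5, 88.5 and 77.9 CPM in NTC and at 56.8, 50.1, 47.6 and 43.2 CPM in WTAP KO. Their log2 fold changes were -0.74 and -0.70 (adjusted p = 0.00575 and 4.35e-04). WARS2, the tryptophanyl enzyme, was at 21.7 to 25.0 CPM in NTC and at 10.3 to 17.5 CPM in WTAP KO (log2 fold change -0.69, adjusted p = 0.00427). It thus moved against its cytosolic counterpart WARS.

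VARS2, the valyl enzyme, was at 62.1 to 66.8 CPM in NTC and at 38.6 to 47.2 CPM in WTAP KO (log2 fold change -0.58, adjusted p = 7.52e-04). TARS2, the threonyl enzyme, was at 65.3 to 67.4 CPM and at 37.9 to 53.0 CPM (log2 fold change -0.58, adjusted p = 0.00181). CARS2, the cysteinyl enzyme, was at 42.1 to 46.2 CPM and at 29.1 to 35.3 CPM (log2 fold change -0.44, adjusted p = 0.00477). In all 9 fallen mitochondrial genes every WTAP KO sample was below every NTC sample, which held for 26.2% of all tested genes. These 9 genes were picked by their call on the same samples, so this separation adds no separate evidence. CARS2, EARS2 and WARS2 each lost the call when any 1 of the NTC samples or sg2 replicate 2 was left out, and the number of fallen mitochondrial genes was then 6.

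The other 7 mitochondrial synthetases did not pass. AARS2, the alanyl enzyme, was at 70.2, 60.1 and 60.5 CPM in NTC and at 86.6, 76.6, 78.8 and 72.9 CPM in WTAP KO, above NTC in every sample (log2 fold change 0.30, adjusted p = 0.0232). LARS2, RARS2, FARS2, YARS2, PARS2 and NARS2 overlapped between the groups, with log2 fold changes from -0.19 for NARS2 to 0.01 for LARS2. LARS2, the leucyl enzyme, was at 67.0 to 74.7 CPM in NTC and at 66.0 to 74.5 CPM in WTAP KO.

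Next, the enzymes of the same amino acid were set side by side as the log2 ratio of cytosolic to mitochondrial CPM within each sample. This gave 17 pairs for 16 amino acids, which were described without a test. The ratio was higher in every WTAP KO sample than in every NTC sample for 8 pairs, lower for 4 and overlapping for 5. No such share was computed for ratios of other genes. Single genes separated upward in 40.1% and downward in 26.2% of all tested genes. The median difference over the 17 pairs was 0.16. Some separations were narrow, with a highest NTC and lowest WTAP KO ratio of 1.57 and 1.58 for serine, and 2.46 and 2.49 for threonine. For tryptophan the ratio of WARS to WARS2 was 2.71 ± 0.39 (SD, n = 3) in NTC and 5.14 ± 0.38 (SD, n = 4) in WTAP KO, a difference of 2.44 on the log2 scale. Both genes moved, in opposite directions. For methionine the difference was 1.75, with MARS2 falling and MARS at 355 to 429.5 CPM in NTC and 396 to 446 CPM in WTAP KO. Isoleucine and cysteine had differences of 1.38 and 1.35, and in these pairs the cytosolic gene rose and the mitochondrial gene fell. Alanine and leucine had differences of 0.93 and 0.69 with a rise of the cytosolic gene, and threonine and serine had differences of 0.56 and 0.48 with a fall of the mitochondrial gene.

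The pairs of lower ratio were those of the fallen cytosolic genes. FARSB to FARS2 differed by -0.96, VARS to VARS2 by -0.79, RARS to RARS2 by -0.60 and HARS to HARS2 by -0.31. In valine and histidine both members fell, the cytosolic gene by more. In arginine and phenylalanine the mitochondrial gene overlapped between the groups. For asparagine, tyrosine, FARSA to FARS2 and the pairs of EPRS with EARS2 and PARS2 the ratios overlapped.

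**Figure D3:**
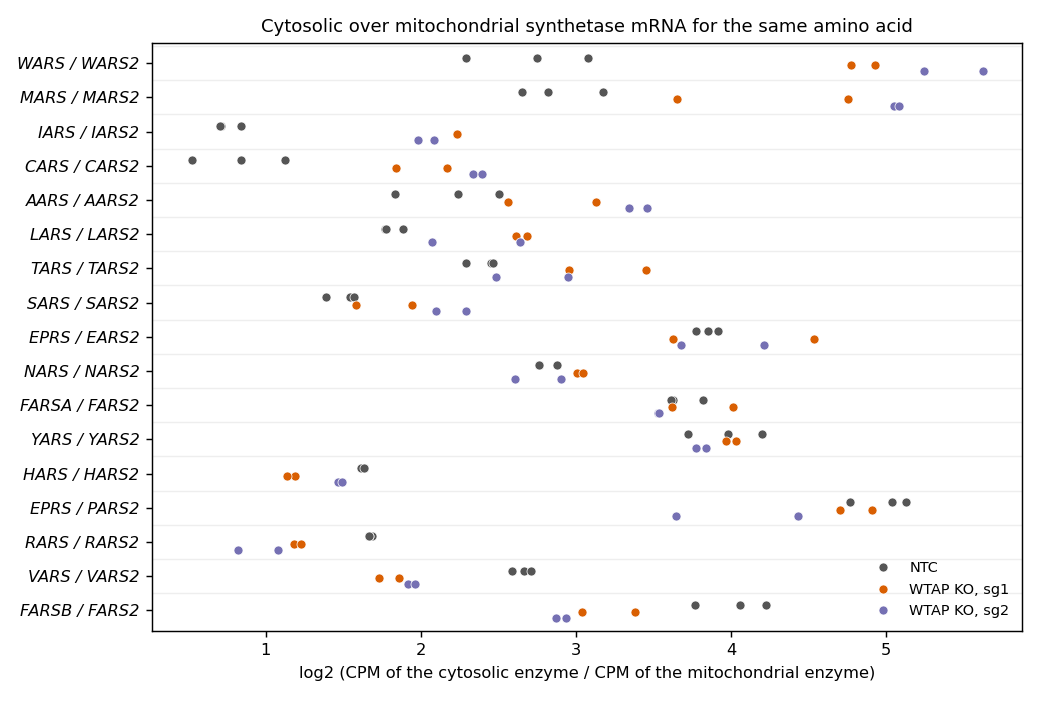
Log2 ratio of cytosolic to mitochondrial CPM for each pair of enzymes of the same amino acid, with 1 point per sample and pairs ordered by the difference between WTAP KO and NTC. The 8 pairs from WARS/WARS2 down to SARS/SARS2 lie to the right in every WTAP KO sample, and HARS/HARS2, RARS/RARS2, VARS/VARS2 and FARSB/FARS2 lie to the left.

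Summed over genes, the cytosolic synthetases were at 5430.4 to 5641 CPM in NTC and at 5661 to 6266 CPM in WTAP KO. This sum includes GARS, which also serves mitochondria, at 297 to 313 CPM in NTC and 456 to 603 CPM in WTAP KO. The mitochondrial synthetases were at 832 to 901 CPM in NTC and at 589 to 661 CPM in WTAP KO. The ratio of these sums was 6.42 ± 0.379 (SD, n = 3) in NTC and 9.66 ± 0.788 (SD, n = 4) in WTAP KO, and ran from 6.03 to 6.78 and from 8.80 to 10.3. The cytosolic total was thus only 1.08 times its NTC mean while its makeup differed. The 6 risen genes held 24.4 to 26.2% of cytosolic synthetase CPM in NTC and 41.7 to 47.5% in WTAP KO. The 5 fallen genes together went from 1175 to 1181 CPM down to 576 to 733 CPM, and the 9 genes that did not pass stood at 2923 to 2987 and 2392 to 2865 CPM. Since these genes were grouped by their calls on the same samples, these sums carry no test.

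**Figure D4:**
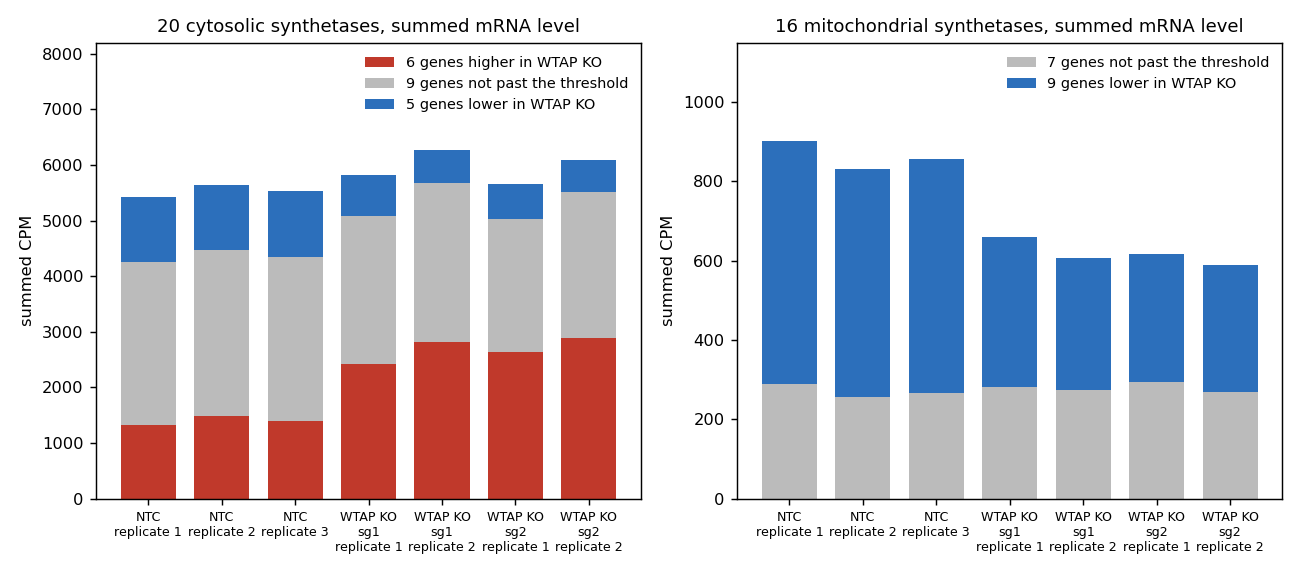
Summed CPM in each of the 7 samples of the 20 cytosolic synthetases (left) and the 16 mitochondrial synthetases (right), split by the limma call of each gene. The cytosolic bars reach 5430.4 to 6266 CPM in all samples with a larger share from the 6 risen genes in WTAP KO, and the mitochondrial bars reach 832 to 901 CPM in NTC and 589 to 661 CPM in WTAP KO.

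Levels were compared between genes per kilobase of exon. With the length of the MANE Select transcript, the median was 92.4 CPM per kilobase for cytosolic and 15.7 for mitochondrial synthetases in NTC, and 99.2 and 13.8 in WTAP KO. With the union of all annotated exons the medians were 46.8 and 7.52 in NTC and 51.9 and 5.87 in WTAP KO. The 10 highest synthetases were cytosolic in both groups with either length. By MANE Select length YARS ranked first in NTC with 227 CPM per kilobase, and WARS ranked 15 in NTC and 4 in WTAP KO. AARS went from rank 11 to rank 3, while VARS went from rank 10 to rank 17. IARS2 was the highest mitochondrial gene in NTC, at rank 16. The order depended on the length used, and by the union of exons EPRS ranked first in NTC and YARS ranked 9.

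Each guide was then set against NTC in a fit of all 3 groups. With sg1, 6 cytosolic synthetases rose and 4 fell and 6 mitochondrial synthetases fell, against 51.2% of all tested genes that passed, 32.2% upward and 19.0% downward. With sg2, 5 cytosolic synthetases rose and 7 fell and 9 mitochondrial synthetases fell, against 57.7% of all genes, 35.6% upward and 22.1% downward. The comparisons share the NTC samples. The log2 fold changes of WARS were 1.61 with sg1 and 1.80 with sg2, those of VARS -1.33 and -1.40 and those of IARS2 -0.99 and -0.95. IARS passed with sg1 (0.48, adjusted p = 0.00319) and had 0.32 with sg2 (adjusted p = 0.024). DARS, EPRS, KARS, CARS2, EARS2 and WARS2 passed as lower with sg2 only, which does not show that the guides differ.

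The difference between guides was tested directly. None of the 36 synthetases passed with limma, where 9 had an unadjusted p under 0.05 and the lowest adjusted p was 0.0536, against 1.92% of all genes that passed. None passed with edgeR, where 10 had an unadjusted p under 0.05 and 1.50% of all genes passed. With DESeq2, 8.14% of all genes passed, and of the 36 synthetases MARS2 and EPRS did, both lower with sg2, by -0.94 and -0.50 on the log2 scale (adjusted p = 0.00328 and 0.00892). Without sg1 replicate 2, MARS2 also passed with limma (-1.25, adjusted p = 0.00238).

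By structural class, 4 of 19 class I enzymes rose and 9 fell, and 2 of 17 class II enzymes rose and 5 fell. Over all tested genes 32.5% passed upward and 19.8% downward. Class I and class II are the unrelated catalytic folds of this enzyme family. EPRS, which carries a glutamyl and a prolyl enzyme, was counted in class I only. PARS2, the mitochondrial prolyl enzyme, was counted in class II. The median log2 fold changes of class I and class II were -0.44 and -0.19. Within the cytosolic enzymes the medians were 0.02 for class I and -0.17 for class II, and within the mitochondrial enzymes -0.58 and -0.19. Of the 8 enzyme genes of the multisynthetase complex, IARS and LARS rose, QARS and RARS fell and DARS, EPRS, KARS and MARS did not pass, with a median of -0.37. Under median-of-ratios 1 of these 8 rose and 5 fell, and 9 of the 17 class II enzymes fell. Under that scaling 25.7% of all tested genes passed upward and 28.1% downward. Their scaffold genes also moved unequally. AIMP2 rose from 35.6, 36.4 and 34.3 CPM to 57.9, 59.1, 63.0 and 63.7 CPM (log2 fold change 0.76, adjusted p = 5.30e-05). EEF1E1 fell from 26.5, 33.2 and 31.9 CPM to 17.2, 20.2, 13.5 and 16.6 CPM (log2 fold change -0.82, adjusted p = 7.65e-04), and AIMP1 overlapped between the groups.

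The synthetases commonly described as ATF4 targets were listed from textbook knowledge, with earlier results of these data known. Of these 12 genes 6 rose and 6 did not pass, with a median log2 fold change of 0.27, against 32.5% of all tested genes upward. All 6 risen synthetases were thus on that list, and EPRS, MARS, NARS, SARS, TARS and YARS were its members that did not pass. Of the 8 cytosolic synthetases outside the list, 5 fell and 3 did not pass, with a median of -0.56, against 19.8% of all tested genes downward. With edgeR 1 gene of the list passed as lower and with DESeq2 2 did, against 25.9% and 28.9% of all genes. Of the promoters printed above, those of AARS, CARS, GARS and IARS belonged to risen genes, and those of MARS and TARS to genes that did not pass. The element was found in 4 of 5 risen cytosolic genes with a window, the exception being WARS, in 3 of 7 that did not pass, namely MARS, NARS and TARS, and in 0 of 4 fallen cytosolic and 0 of 8 fallen mitochondrial genes with a window. LARS and VARS were without a window.

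ATF4 mRNA was at 485, 739 and 604 CPM in NTC, at 657 and 589 CPM with sg1, and 521 and 522 CPM with sg2. The groups overlapped, and the log2 fold change was -0.08 (adjusted p = 0.667). ATF4 is known to be controlled mainly through its translation, which these samples do not measure. Of 20 ATF4-regulated genes other than synthetases, counting ATF4 itself, 16 rose and 4 did not pass, with a median of 1.46. Over all tested genes 32.5% passed upward. With edgeR and with DESeq2, 15 of these 20 genes rose and 1 fell. Over all 12631 genes, 3487 rose and 3267 fell with edgeR, and 3850 rose and 3654 fell with DESeq2. SHMT2 had every WTAP KO sample below every NTC sample and did not pass (log2 fold change -0.47, limma adjusted p = 0.0125). ASNS rose from 66.3, 136 and 97.4 CPM to 266, 360.1, 305 and 325 CPM (log2 fold change 1.69, adjusted p = 6.76e-05). CEBPB, a transcription factor of the C/EBP family, was at 12.6 to 19.3 CPM in NTC and at 169 to 189.7 CPM in WTAP KO (log2 fold change 3.40, adjusted p = 4.12e-08). VLDLR, a lipoprotein receptor, was at 0.976 to 1.34 CPM and at 27.3 to 32.6 CPM (3.85, adjusted p = 1.13e-08). In this list 5 of 17 genes with a window held the element (29.4%), namely ATF3, CEBPG, ASNS, CHAC1 and HERPUD1.

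EIF2AK4, also called GCN2, is the sensor of uncharged tRNA among the 4 kinases that phosphorylate eIF2 alpha upstream of ATF4. It was at 103 to 127 CPM in NTC and rose to between 145 and 179 CPM in WTAP KO (log2 fold change 0.45, adjusted p = 0.0057). The other 3 did not pass. EIF2AK2, EIF2AK3 and EIF2AK1 had log2 fold changes of 0.67, 0.44 and -0.02 (adjusted p = 0.0202, 0.0123 and 0.859). With sg1 alone EIF2AK2 and EIF2AK3 passed upward (adjusted p = 0.00105 and 0.00553) and EIF2AK4 did not (adjusted p = 0.0217). With sg2 alone only EIF2AK4 passed. The call of EIF2AK4 was lost under median-of-ratios (0.24, adjusted p = 0.0812), with edgeR and with DESeq2, and in 4 of 7 fits that left out 1 sample, namely NTC replicate 2 or 3 or either sg2 sample. Of 10 amino acid transporter genes 6 rose and 4 did not pass, with a median of 0.74, against 32.5% of all tested genes upward. SLC7A11, the cystine transporter, was at 31.5, 36.7 and 38.0 CPM in NTC, at 321 and 723 CPM with sg1, and 117 and 234 CPM with sg2 (log2 fold change 2.96, adjusted p = 3.56e-04). SLC1A4, a transporter of neutral amino acids, was at 50.2 to 74.1 CPM in NTC and at 208 to 296 CPM in WTAP KO (2.10, adjusted p = 2.80e-06).

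Because WARS is also an interferon gamma target, genes of that response were listed beside it. Of 9 such genes 7 were tested, of which 5 rose and 2 did not pass, with a median of 1.35. Over all tested genes 32.5% passed upward. CIITA, the regulator of MHC class II genes, was at 1.72 to 2.57 CPM in NTC and at 27.0 to 34.1 CPM in WTAP KO (log2 fold change 3.36, adjusted p = 5.63e-08). GBP1, a guanylate-binding protein, was at 1.59 to 1.77 CPM and at 4.61 to 12.7 CPM (1.87, adjusted p = 2.21e-04). The part of either response in the rise of WARS was not tested.

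Genes for the steps before and after aminoacylation were counted next. Their counts stand beside 32.5% of all tested genes that passed upward and 19.8% downward. Of 12 tested genes for processing and modification of mitochondrial tRNA, 8 fell, 1 rose and 3 did not pass, with a median of -0.76. TRMU, which thiolates mitochondrial tRNA, was at 16.2 to 17.9 CPM in NTC and at 4.51 to 8.04 CPM in WTAP KO (log2 fold change -1.47, adjusted p = 5.37e-05). NSUN2, a tRNA cytosine methyltransferase that acts outside mitochondria too, was at 264 to 337 CPM and at 108 to 121 CPM (-1.39, adjusted p = 2.38e-06). Of 10 mitochondrial translation factors 3 fell, 1 rose and 6 did not pass, with a median of -0.20. TSFM, a mitochondrial elongation factor, fell by 0.98 on the log2 scale (adjusted p = 1.27e-05), and MTIF3, an initiation factor, rose by 0.72 (adjusted p = 1.50e-04). QRSL1, a subunit of the amidotransferase that forms mitochondrial glutaminyl-tRNA, rose by 0.83 (adjusted p = 1.18e-04), and GATC of the same enzyme did not pass.

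Of 7 cytosolic elongation genes 4 fell, 1 rose and 2 did not pass, with a median of -0.51. The shares over all tested genes were 19.8% downward and 32.5% upward. EEF1B2, a nucleotide exchange factor for EEF1A, fell by 0.97 (adjusted p = 2.51e-04), and EIF5A fell by 0.95 (adjusted p = 2.20e-05). Of 6 proofreading and deacylase genes tested, 3 fell and 2 rose. AARSD1, an alanyl-tRNA editing protein, went from 4.76 to 5.44 CPM in NTC to 0.857 to 1.10 CPM in WTAP KO (log2 fold change -1.64, adjusted p = 3.87e-06), and DTD1, a D-aminoacyl-tRNA deacylase, rose by 0.89 (adjusted p = 2.54e-05). Of 6 genes of tRNA export and 3′ end maturation 3 fell and 1 rose. SSB, the La protein that binds new RNA polymerase III transcripts, fell by 1.38 (adjusted p = 5.26e-05), and ELAC2, the tRNA 3′ end nuclease, fell by 0.66 (adjusted p = 1.56e-04).

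Erythroid markers of HEL cells were present in NTC, with GATA1 at 232 to 293 CPM, and most of them moved with the groups. Of 12 erythroid markers 10 fell, against 19.8% of all tested genes. The summed level of these 12 was 2518 to 3250 CPM in NTC and 984 to 1180 CPM in WTAP KO. The sum of 8 megakaryocyte markers was 1784 to 1832 CPM and 1712 to 2788 CPM, and that of 10 granulocyte and monocyte markers 200.4 to 209 CPM and 249.7 to 331 CPM, with MPO, ELANE, PRTN3, AZU1 and CD14 under 1 CPM in every sample. Of 5 tested granulocyte and monocyte markers, 3 rose and 2 did not pass, against 32.5% of all tested genes upward. CTSG was at 0.146 to 0.322 CPM in NTC and 25.3 to 37.8 CPM in WTAP KO, and CSF3R at 0.342 to 0.831 and 22.9 to 42.7 CPM. CSF1R was at 1.85 to 2.28 and 8.76 to 17.8 CPM. Most of the sum came from CD33, at 154 to 162 and 163 to 194 CPM, which did not pass. The sum of 5 B cell markers was 7.83 to 11.3 CPM and 42.9 to 83.7 CPM with MS4A1 at 0. All 3 tested B cell markers rose, against the same 32.5% of all tested genes. Among them CD79A was at 3.54 to 4.82 CPM in NTC and 14.1 to 34.6 CPM in WTAP KO, and CD79B at 3.29 to 5.84 and 26.0 to 46.3 CPM. PAX5 was low in both groups, at 0.509 to 0.830 and 1.26 to 2.51 CPM. The sum of 5 T cell markers was 28.0 to 35.99 CPM and 94.1 to 167 CPM with CD3D, CD3E and CD3G under 1 CPM. Nearly all of that sum came from CD7 (27.7 to 35.7 and 92.7 to 165 CPM). The 5 fibroblast markers summed to at most 1.30 CPM. The part of these differences in the synthetase results was not tested, and in bulk RNA fewer cells of a type and less RNA per cell cannot be told apart.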

How the data were processed

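Reads were mapped by the authors with TopHat2 (hg19) and assigned to UCSC genes with HTSeq, and the deposited values are CPM (counts per 1000000 counted reads), 1 file per sample. The labels also name edgeR as a processing tool, and versions are not given in the sources used here. The CPM were whole multiples of 1 read in 100% of values (tolerance 0.01 reads), so whole reads were recovered. The members and gene lists were chosen with earlier results of these data known. Every synthetase was named, and of each other list the 2 largest changes past the threshold whose groups did not overlap, with WTAP, ATF4 and ASNS. The cell type marker lists depart from this rule and are given as sums, with single markers named after their values were seen. The eIF2 alpha kinases other than EIF2AK4 were also named after their values were seen.

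limma (3.58.1, R 4.3.3) with a mean-variance trend was fitted to log2(CPM + 1) for the 12631 genes whose mean CPM was 1 or more, which understates changes of low genes, with Benjamini-Hochberg adjustment over all tested genes and a two-sided adjusted p of 0.01. WTAP KO was compared with NTC in 2 groups without a block, and guides in 3 groups. The study's methods used DESeq2 on counts, and here the deposited unit called for limma. Alternatives covered pseudocount, filters, scalings, trend, design, replicate block, GC and length correction, edgeR (4.0.16) and DESeq2 (1.42.0) on recovered reads, threshold and leaving out each sample. MANE Select lengths were added after the data were seen. On simulated data of 12631 genes for WTAP KO against NTC, limma recovered 97 of 100 genes changed by 1 on the log2 scale and 100 of 100 changed by 2, with 0 false calls. The simulation changed only 200 genes and gave every gene the same dispersion. In the data 52.4% of tested genes passed and the spread differed between genes, so these rates need not hold for these samples.

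Replicates of a group correlated at r of 0.985 or more across genes and differed by more than sampling noise (chi-square per degree of freedom of 11.8 or more). Gene positions are from GENCODE lifted to GRCh37, with all 36 synthetases matched, 18 of them under a newer symbol. Of the synthetases, 11 share exon bases with another listed gene, among them AARS with DDX19B, WARS with WDR25, MARS with DDIT3 and HARS with HARS2. The library kit was stranded per the study's methods, and the strand setting of the counting is not given, so reads over shared bases are uncertain. Values of some single genes are not reported here.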

Additional observations from a re-analysis of the deposited data

Results flagged for a closer look

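In the group of 4 WTAP KO samples, 1 sample stood apart from the other 3 for 3 of 36 synthetases, by a gap to the nearest sample divided by the group's range above Dixon's 95% critical value. Chance gives such a gap in about 1 in 20 groups. CARS was lowest in sg1 replicate 1, with 127 CPM against 151 to 153 CPM in the others and a ratio of 0.921. IARS was lowest in sg2 replicate 1, with 368 CPM against 453 to 461 CPM and a ratio of 0.922. EARS2 was highest in sg1 replicate 1, with 31.1 CPM against 17.9 to 19.0 CPM and a ratio of 0.900. PET112, the older symbol of GATB, a subunit of the mitochondrial glutaminyl-tRNA amidotransferase, was listed in the WTAP KO files only. It had 22.6 ± 1.64 CPM (SD, n = 4, 21.1 to 24.7 CPM), and no NTC value could be set beside it.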

How the results depend on the processing

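Of the 20 synthetases past the threshold, 12 kept their call in all 15 alternatives and all 7 fits without 1 sample, and of the 16 others 9 passed in none. No value of a called gene reversed, and 39 of 814 values changed sign while past the threshold in neither fit. Fallen cytosolic synthetases numbered 9 with median-of-ratios, 9 with TMM, 10 with GC and length correction, 8 with edgeR, 9 with DESeq2, 8 at an adjusted p of 0.05 and 3 to 6 without 1 sample. The fallen genes among all 12631 moved too, from 2507 in the main fit. In the same order they numbered 3549, 3546, 4039, 3267, 3654, 3234 and 1767 to 2555. The median of all 20 cytosolic synthetases was -0.31 with median-of-ratios and with TMM, -0.33 with GC and length correction with or without the replicate block, and -0.26 with edgeR and DESeq2. The mitochondrial median was -0.71 with median-of-ratios and TMM, -0.62 with quantile scaling, -0.75 with GC and length correction with or without the block, and -0.68 with edgeR and DESeq2. By construction these scalings moved the median of all genes, from 0.15 to between -0.07 and 0.01, with 3487 up and 3267 down over all genes for edgeR. At an adjusted p of 0.05, 1 mitochondrial synthetase rose. With DESeq2, 25 synthetases passed for sg1 against NTC (16 with limma), while over all genes 7041 passed (6473 with limma), and 2 synthetases passed for sg2 against sg1, where 0 to 1 passed without 1 sample. The replicate block left 3 fallen cytosolic and 5 fallen mitochondrial synthetases and 13 fallen genes of the other lists against 21, while calls over all genes went from 6617 to 4426. In that fit NTC replicate 3 has no partner and adds nothing to the difference. Samples of the same number in NTC and WTAP KO correlated at -0.324 to -0.0188 in their deviations from the group mean. The numbers were therefore not taken as a pairing of NTC with WTAP KO. Samples of the same number in sg1 and sg2 correlated at 0.325. With 2 samples per guide the deviations mirror each other, so both pairs give this value by construction. An effect shared by sg1 and sg2 samples of the same number was not tested. With the block 0 synthetases passed for sg2 against sg1, and 50 of all genes did (243 without it). The cause of these changes was not tested. Leaving out 1 sample of an sg group leaves that guide with 1 sample, assumed to vary like the others.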

Other observations

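TARSL2, a further threonyl-tRNA synthetase gene whose product is cytosolic, was looked at after the results were seen. It was at 23.8 to 28.6 CPM in NTC and at 26.3 to 29.1 CPM in WTAP KO, with overlapping groups (log2 fold change 0.08, limma adjusted p = 0.535).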
